A study of Mus musculus with 12 samples.

Results

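The miR-181 family comprised 4 of the 696 mouse miRNAs on the array, mmu-miR-181a, mmu-miR-181b, mmu-miR-181c, and mmu-miR-181d, found by exact match of the name of each entry. The family was chosen by its measured total signals at days 1, 3, and 5, and for partners from shared gene clusters whose time courses differed. The time courses of the 4 members and the differences between partners are therefore descriptions, given without a test. All 12 cultures were bone marrow from male C57BL/6 mice aged 6 to 8 weeks, depleted of cells carrying B220/CD45R or CD3, the surface markers of B and T lymphocytes. Every culture received M-CSF, on which osteoclast precursors depend for survival, and RANKL, the cytokine that turns them into osteoclasts, at 30 ng/ml each. The groups were 4 cultures stopped at day 1, 4 at day 3, and 4 at day 5, with no culture kept without RANKL, so that day and treatment time cannot be told apart. From each culture 200 ng of total RNA was labeled with a single dye and hybridized to 1 array.

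MicroRNAs are short RNAs that guide a silencing complex to messenger RNAs, mainly through pairing of the seed, bases 2 to 8 from the 5′ end. The miR-181 family is known from blood cells, where miR-181a is abundant in the thymus, promotes B cell development, and tunes the sensitivity of the T cell receptor. Its members are made from precursor hairpins, each of which yields a strand from either arm, and the strands named here with an asterisk come from the arm opposite to that of the members.

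Sequences are shown because the members share their seed and differ in a few bases further along, which is where the array tells them apart. All 4 members were found in the RefSeq table of GRCm38.p6. The mature sequences are given 5′ to 3′, with the seed in capitals.
mmu-miR-181a: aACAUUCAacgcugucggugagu
mmu-miR-181b: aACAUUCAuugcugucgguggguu
mmu-miR-181c: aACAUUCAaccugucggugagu
mmu-miR-181d: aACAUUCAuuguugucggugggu
Only these 4 of the 1679 mature miRNA names in that table carried this seed. Counted from the 5′ end, miR-181a differed from miR-181b by the substitutions A9U, C10U, and A21G and by the 1 base that miR-181b has in addition at its end. The members closest in sequence were miR-181a and miR-181c, 1 base apart and 23 and 22 bases long. miR-181b differed from miR-181d by C12U and by its last base. Relatedness in sequence thus paired miR-181a with miR-181c and miR-181b with miR-181d, whereas the gene clusters pair them otherwise.

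In GRCm38.p6 the family is encoded by 6 precursors in 3 clusters. Mir181a-1 and Mir181b-1 lie 97 bp apart on the plus strand at chr1:137966455-137966718, in no other annotated gene, with the non-coding RNA genes Gm4258 and Gm34353 as neighbors. Mir181a-2 and Mir181b-2 lie 1019 bp apart on the plus strand at chr2:38852735-38853918, within the bounds of Nr6a1, a nuclear receptor gene, and of its antisense RNA gene Nr6a1os. Mir181c and Mir181d lie 85 bp apart on the minus strand at chr8:84178716-84178961, in no other annotated gene, 2163 bp from Nanos3. Since miR-181a and miR-181b each come from 2 loci with identical mature sequences, the array cannot tell the loci apart.

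The array measured each member with 2 probes of 10 spots each, complementary to a stretch ending at or near the 3′ end of the miRNA. The stretch began at base 11 or 10 for miR-181a and miR-181b. It began at base 5 or 4 for miR-181c and 8 or 7 for miR-181d, and so reached into the shared seed. The probes of miR-181a and miR-181b are short and nearly alike, and are shown for that reason with the bases that differ between partners in capitals, 5′ to 3′.
miR-181a, 13 bases: acTcaccgacagc
miR-181b, 13 bases: acCcaccgacagc
miR-181a, 14 bases: acTcaccgacagcG
miR-181b, 14 bases: acCcaccgacagcA
The 13-base pair differs at 1 base and the 14-base pair at 2 bases. Across clusters, and without gaps, the 13-base probe of miR-181a mismatches miR-181c at 1 base, and both probes of miR-181b mismatch miR-181d at 1 base. Counted without gaps, the 18-base and 19-base probes of miR-181c mismatch every other member at 4 or more bases. With a gap allowed, miR-181a and miR-181c are only 1 base apart, so this count overstates how far these probes differ from miR-181a. The 16-base and 17-base probes of miR-181d mismatch miR-181b at 1 base and miR-181a at 4 bases. How much of the signal of one member came from another was not tested. Because probes differ in how strongly they bind, levels were never compared between members, and only changes over time were.

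The arrays detected 233 to 276 miRNAs each at day 1, 211 to 226 at day 3, and 186 to 269 at day 5, the lowest number on the array of day 5 replicate 4. The mean total signal of an array at day 3 was 58.6% and at day 5 80.7% of that at day 1. Slide 1 carried days 1 and 5 and slide 2 carried day 3, so for every difference from day 3 the slide and the day cannot be told apart. Values below are log2 normalized signals, obtained by quantile normalization over 334 miRNAs, those that any array detected. That step and others tried here assume that arrays share an overall distribution or level, which matters most for miR-181b.

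Of the 4 members, miR-181a, miR-181c, and miR-181d were lower at days 3 and 5 than at day 1, whereas miR-181b was higher, except at day 3 when the arrays were not normalized. The loss was largest for miR-181c, which changed by -1.94 ± 0.22 (log2 difference ± SE of the fit, day 5 minus day 1, n = 4 per day), and smaller for miR-181d (-1.19 ± 0.34) and miR-181a (-0.80 ± 0.15). The change of miR-181b was 0.45 ± 0.13. Over all 334 miRNAs the median change from day 1 to day 5 was 0.11. At day 5, 2 of 4 members lay below day 1 on every array, beside 29.9% of all miRNAs, and 0 of 4 lay above it on every array, beside 32.6%. At day 3, 3 of 4 members lay below day 1 on every array, beside 29.6%, and 1 of 4 above, beside 29.9%. These counts come from the values that chose the family. In RNA from whole cultures, fewer cells of a type and less RNA per cell cannot be told apart.

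**Figure D1:**
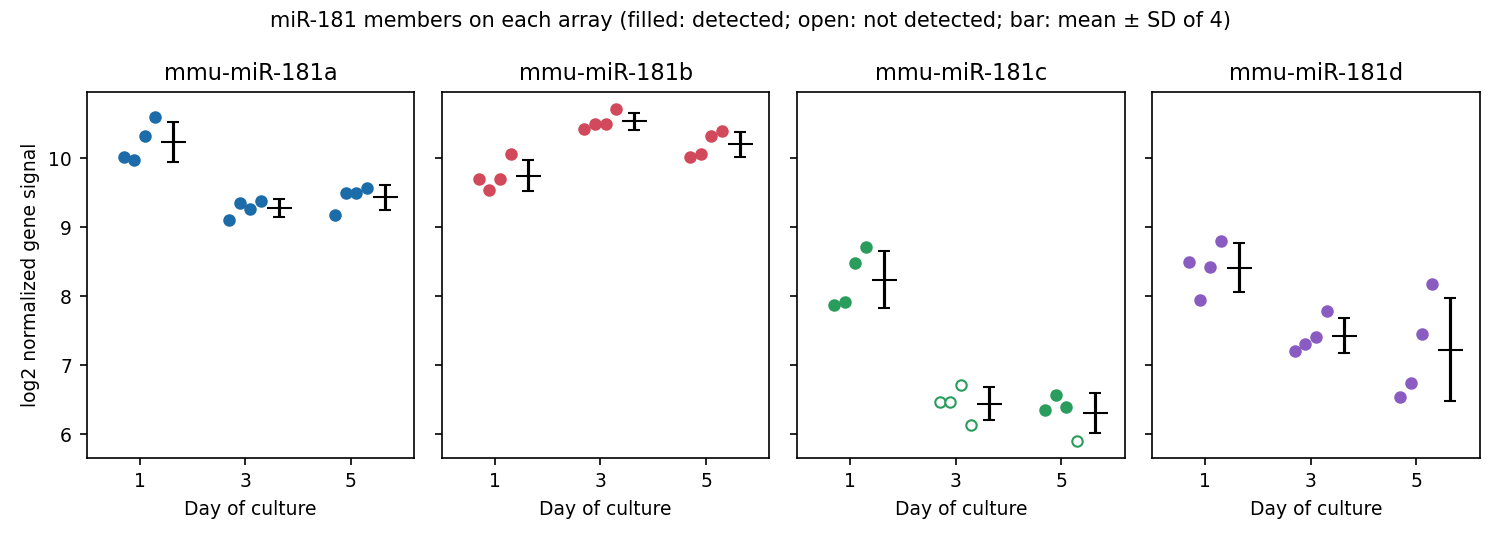
Log2 normalized signal of each member on each of the 12 arrays (y axis) by day of culture (x axis), with filled points where the miRNA was detected, open points where it was not, and black bars for the mean ± SD of 4 arrays. miR-181a and miR-181c were lower at days 3 and 5 than at day 1, miR-181b was highest at day 3, an order that turned without normalization, and miR-181d spread widely at day 5, from 6.54 to 8.18. Heights are not comparable between panels, since each miRNA has its own probes.

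miR-181a, made from the clusters of chromosomes 1 and 2, was detected on all 12 arrays. Its log2 normalized signals at day 1 were 10.03, 9.98, 10.33, and 10.60. At day 3 they were 9.10, 9.36, 9.27, and 9.39, and at day 5 they were 9.18, 9.49, 9.49, and 9.58. Every array of days 3 and 5 was below every array of day 1, and days 3 and 5 overlapped. The means were 10.23 ± 0.29, 9.28 ± 0.13, and 9.43 ± 0.18 (SD, n = 4), so that the level at day 3 was 1.94-fold and at day 5 1.74-fold lower than at day 1. Before normalization the total signal stood at 26.3% of its day 1 mean at day 3 and at 40.6% at day 5, further down than the arrays as a whole.

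miR-181b, the partner of miR-181a in both clusters, was also detected on all 12 arrays. Its log2 normalized signals were 9.70, 9.55, 9.70, and 10.06 at day 1, 10.43, 10.50, 10.50, and 10.72 at day 3, and 10.03, 10.06, 10.33, and 10.39 at day 5. All arrays of day 3 were above all arrays of day 1, whereas at day 5 the lowest arrays overlapped the highest of day 1. The means were 9.75 ± 0.22, 10.54 ± 0.13, and 10.20 ± 0.18 (SD, n = 4), a level 1.73-fold higher at day 3 and 1.37-fold higher at day 5 than at day 1. The direction of this change rests on the normalization. Unnormalized total signals were 82.2% of the day 1 mean at day 3 and 103% at day 5, and on the log2 scale without normalization the difference from day 1 was -0.28 at day 3 and 0.05 at day 5. With arrays scaled to a 75th percentile, taken over miRNAs that every array detected, the day 5 difference was 0.04.

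miR-181c, from the chromosome 8 cluster, was detected on all 4 arrays at day 1, on 0 of 4 at day 3, and on 3 of 4 at day 5. Its log2 normalized signals were 7.87, 7.91, 8.48, and 8.71 at day 1, 6.47, 6.47, 6.70, and 6.13 at day 3, and 6.36, 6.57, 6.39, and 5.90 at day 5. All later arrays lay below all arrays of day 1. With no detection at day 3, the change there is a bound, at least 3.30-fold lower than at day 1, taking on each array the higher of its own signal and the lowest signal of any detected miRNA. At day 5 the level was 3.84-fold lower, with means of 8.24 ± 0.42 at day 1 and 6.30 ± 0.29 at day 5 (SD, n = 4). The array of day 5 replicate 4 had a total signal of -3.31, below its background, against 72.5 to 91.8 on the other arrays of that day and 305 to 466 at day 1, and its normalized value reflects only a rank among dim miRNAs. Without that array the difference was -1.74. Scalings that do not use ranks gave -3.41 to -3.79 with all arrays. Under them the signal of day 5 replicate 4 was set to the floor of 1, so these sizes are not measured.

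miR-181d, the partner of miR-181c, was detected on all 12 arrays. Its log2 normalized signals were 8.50, 7.94, 8.42, and 8.80 at day 1, 7.20, 7.31, 7.40, and 7.79 at day 3, and 6.54, 6.74, 7.44, and 8.18 at day 5. Every array of day 3 was below day 1, but at day 5 replicate 4 reached into the range of day 1. The means were 8.41 ± 0.35, 7.42 ± 0.25, and 7.23 ± 0.74 (SD, n = 4), or 1.99-fold lower at day 3 and 2.28-fold lower at day 5. Without the array of day 5 replicate 4 the log2 difference from day 1 to day 5 was -1.48, and without that of day 5 replicate 1 it was -0.94. In the deposited values the differences from day 1 were -2.31 at day 3 and -4.33 at day 5. The deposited log2 values of day 5 were 1.41, 1.46, 4.52, and 7.03, so that size depends on single arrays. After normexp background correction the differences from day 1 were -0.58 at day 3 and -0.68 at day 5.

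Between days 3 and 5 the members differed by less than between days 1 and 3. The log2 differences, day 5 minus day 3, were 0.16 ± 0.15 for miR-181a, -0.34 ± 0.13 for miR-181b, -0.14 ± 0.22 for miR-181c, and -0.20 ± 0.34 for miR-181d (± SE, n = 4 per day). Only miR-181b showed arrays of both days apart from each other, with day 5 below day 3. Without normalization this difference turned to 0.33, and that of miR-181a grew to 0.63.

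The question posed by the clusters was whether partners from the same loci kept the same course. Taking the difference of both partners within each array removes most of what scaling does to an array. For miR-181a minus miR-181b, relative to the day 1 mean, the 4 arrays of day 1 ranged from -0.15 to 0.15. At day 3 the values were -1.81, -1.63, -1.72, and -1.82, and at day 5 they were -1.33, -1.06, -1.32, and -1.30. The 3 days did not overlap. The ratio of miR-181a to miR-181b was 3.35-fold lower at day 3 and 2.38-fold lower at day 5 than at day 1, a change of -1.74 ± 0.08 and -1.25 ± 0.08 on the log2 scale (± SE, n = 4 per day). Between days 3 and 5 the difference moved back by 0.49 ± 0.08. Over all alternatives of filter, scaling, background, and floor, and in the deposited values, the day 5 change lay between -1.38 and -1.05.

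For miR-181c minus miR-181d, relative to the day 1 mean, the values at day 1 were -0.46, 0.14, 0.23, and 0.09. At day 3 they were -0.56, -0.67, -0.52, and -1.49, and at day 5 they were -0.01, -0.01, -0.88, and -2.11. Days 1 and 3 did not overlap, and days 1 and 5 did. The changes were -0.81 ± 0.46 to day 3 and -0.75 ± 0.46 to day 5 (± SE, n = 4 per day), with an SD of 0.99 among the arrays of day 5. Without the array of day 5 replicate 4, on which miR-181c was not detected and miR-181d was highest, the day 5 change was -0.25. With all arrays it was -2.22 to -2.09 under the 4 other scalings and -0.15 after normexp background correction. Under those 4 scalings miR-181c on day 5 replicate 4 was set to the floor of 1, so these sizes are not measured. The deposited values held no miR-181c value for that array but did hold one for miR-181d. Their -2.46 therefore compares unlike sets of arrays and is not a difference within arrays. miR-181c could be read at day 3 only as not detected, which limits this pair further.

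**Figure D2:**
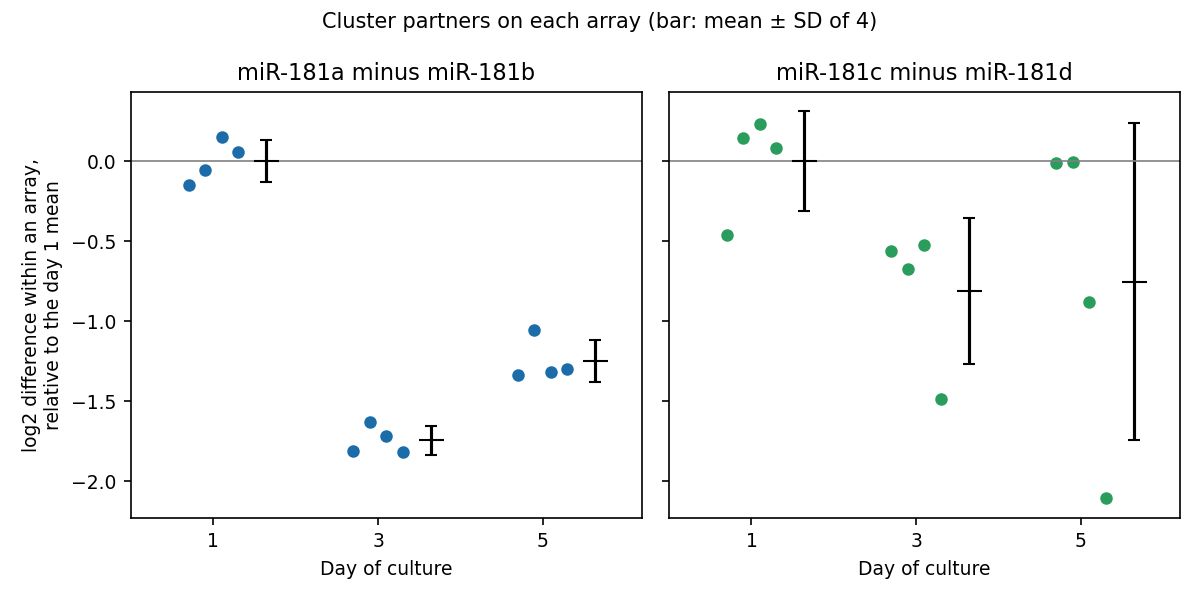
Difference in log2 normalized signal between cluster partners within each array, relative to the day 1 mean (y axis), by day of culture (x axis), with colored points for the 12 arrays and black bars for the mean ± SD of 4. The miR-181a to miR-181b difference separated all 3 days, with means of -1.74 at day 3 and -1.25 at day 5. For miR-181c and miR-181d the arrays of day 5 ran from -2.11 to -0.01 and overlapped those of day 1.

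Across clusters, the members closest in sequence differed in course too. The day 5 change of miR-181a exceeded that of miR-181c by 1.14 on the log2 scale, and that of miR-181b exceeded that of miR-181d by 1.64. The nearest pair in change was miR-181a with miR-181d, 0.03 apart at day 3 and 0.39 apart at day 5. miR-181b stood 2.39 above miR-181c at day 5, the widest gap of the 6 pairs.

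Before any normalization, both probes of miR-181a, of miR-181c, and of miR-181d were below their day 1 means at days 3 and 5, whereas those of miR-181b fell on either side at day 5. At that day the 13-base and 14-base probes of miR-181a held 35.0% and 42.8% of their day 1 means, whereas those of miR-181b held 92.1% and 110%. At day 3 the same probes were at 22.8% and 27.6% for miR-181a and at 76.2% and 85.5% for miR-181b. The probes of miR-181c stood at 11.6% and 18.1% at day 5 and those of miR-181d at 34.6% and 38.1%. Shorter and longer probes of a member thus lay closer to each other than the 2 partners from the same loci did for miR-181a and miR-181b. The shorter probe of each member is contained in the longer one, so the 2 probes are not independent readings.

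**Figure D3:**
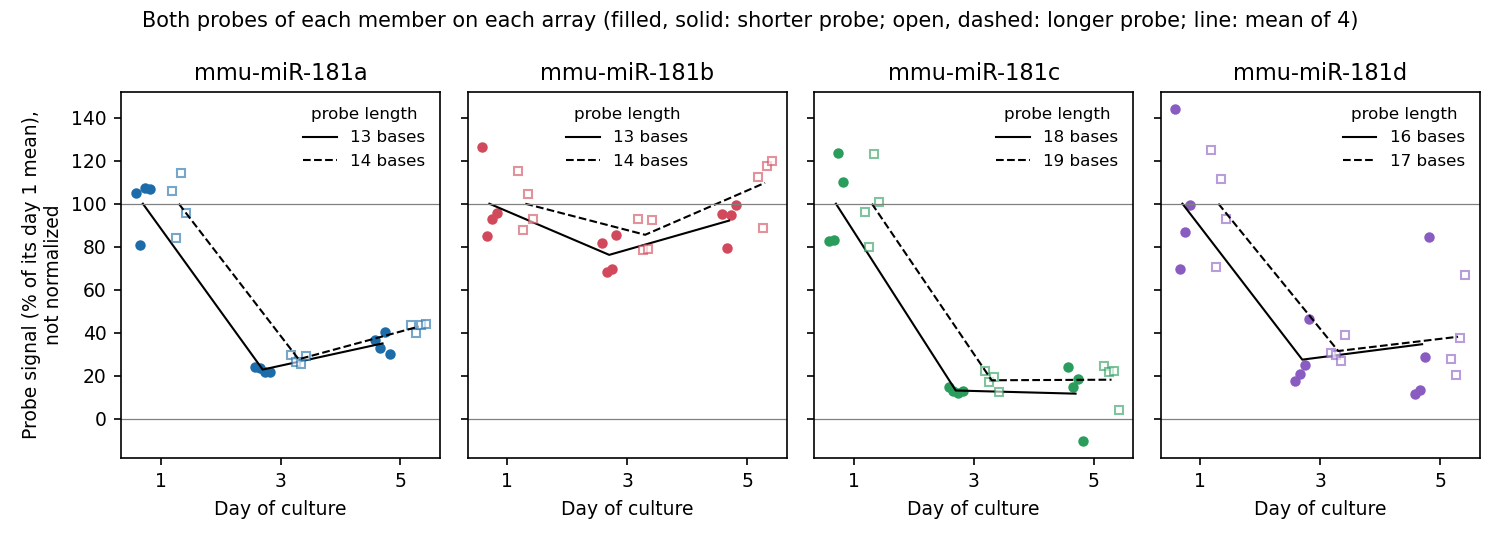
Unnormalized signal of both probes of each member as a percent of that probe's day 1 mean (y axis), by day of culture (x axis), with a point for each of the 12 arrays, filled for the shorter and open for the longer probe, and lines through the means of 4. At day 3 the means of the miR-181a probes were low, at 22.8% and 27.6%, while the means of the miR-181b probes were 76.2% and 85.5%. The shorter miR-181c probe was below 0 on 1 array of day 5.

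The opposite arms of the miR-181a precursors were on the array as mmu-miR-181a-1*, from chromosome 1, and mmu-miR-181a-2*, from chromosome 2, and neither had a part in choosing the family. The first was detected only on 3 of 4 arrays of day 5 and the second on 0 of 12 arrays, so no change is given for it. The RefSeq sequence of the first is shown to set it apart from the members, with its own seed in capitals.
mmu-miR-181a-1*: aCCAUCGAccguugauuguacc
Its log2 normalized signals were 6.79, 6.01, 6.67, and 5.57 at day 1, 6.85, 7.07, 6.90, and 6.90 at day 3, and 6.94, 7.07, 7.54, and 7.50 at day 5. No array of day 1 reached the later days, although unnormalized signals overlapped, with 66.4 to 176 at day 1 and 97.8 to 215 at day 5. The log2 difference between days 5 and 1 was 1.00 ± 0.26, with an adjusted p of 0.0055 (limma, Benjamini-Hochberg over 334 miRNAs). Since it entered the test only through detection at day 5, where it was highest, this p is no support for a rise. Without the filter on detection the difference was 0.82 (adjusted p = 0.012), and after normexp background correction it was 0.27 (adjusted p = 0.020). Under the 4 other scalings the difference was 0.33 to 0.68 and the adjusted p ran from 0.059 to 0.40. Over all 11 alternatives the adjusted p was under 0.01 in 3. On slide 1 alone, a comparison chosen after seeing the data, the adjusted p was 0.023, and leaving out day 1 replicate 2, day 5 replicate 3, or day 5 replicate 4 gave adjusted p = 0.017, 0.017, and 0.014. The moderated F test over the 3 days gave an adjusted p of 0.014, where 62.9% of all miRNAs were under 0.01.

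The miRNAs most like each member were sought among the 145 non-members detected on all 12 arrays, by Pearson's r of log2 normalized signals, as a description in which arrays of the same day and slide are shared. For miR-181a these were miR-93 (r = 0.93), miR-223 (0.90), and miR-25 (0.89), whose own day 5 differences were -0.61 for miR-93 and -0.95 for miR-25, with miR-223 saturated on all arrays of days 1 and 5. For miR-181b they were miR-484 (r = 0.86), miR-345-5p (0.86), and miR-1937b_v16.0 (0.84), with day 5 differences of 1.05, 1.25, and 0.55. For miR-181d they were miR-2861 (r = 0.86), miR-10a (0.83), and miR-149 (0.81), with -0.74, -0.44, and -0.59. miR-181c was not detected on all arrays and no likeness was sought for it.

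Because miR-181a is also known from lymphoid cells, markers of other blood and marrow cells were read beside the members. Both lymphoid miRNAs were detected on all 4 arrays of day 1, after lymphocyte depletion. miR-150, abundant in mature lymphocytes, was detected on no array of days 3 and 5, entered the test only through day 1, and was at least 4.68-fold lower at day 5 (adjusted p = 0.067, limma). Under the 4 other scalings its adjusted p ran from 0.0068 to 0.022, under 0.01 in 3 of them. miR-155, which activated lymphocytes and macrophages express, fell by 1.05 on the log2 scale (adjusted p = 0.0037), although under 3 of 4 other scalings it did not pass. Their summed total signal went from 354 to 646 at day 1 to 48.3 to 96.2 at day 3 and 123 to 147 at day 5. These signals, like miR-181a, miR-181c, and miR-181d, were lower at days 3 and 5 than at day 1, and the part of lymphoid cells in the course of the members was not tested.

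Markers of other lineages moved as well, where 29.0% of all 334 miRNAs fell and 31.7% rose from day 1 to day 5 (limma, adjusted p under 0.01). Of the erythroid miRNAs, miR-451 fell by 7.24 on the log2 scale, and miR-144 was at least 5.06-fold lower but was detected on 2 arrays of day 1 and on none later, so that it entered the test only through day 1. Their summed total signal went from 29020 to 57393 at day 1 to 124 to 295 at day 5. miR-126-3p, of megakaryocytes and endothelium, was at least 22.1-fold lower and miR-126-5p differed by -3.72 on the log2 scale. Both were detected at day 1 alone, the second on 1 array, so that they too entered the test only through day 1. On every array of day 5 miR-126-5p stood at the floor, so its difference is not a measured size. Their summed signal was 616 to 1384 at day 1 and at most 40.1 at day 5. Of the stromal miRNAs, miR-199a-5p rose by 2.72 and miR-199a-3p by 2.23 on the log2 scale. miR-214 rose by 6.10, detected on 1 array of day 1 and 3 of day 5. miR-143, with 6.12, was detected only at day 5 and entered the test through that day, and miR-145 did not pass. Both sizes rest on day 1 values that reached the floor. Under the 4 other scalings the rise was 4.50 to 4.84 for miR-214 and 3.38 to 3.72 for miR-143. The summed signal of the 5 stromal miRNAs went from 494 to 896 at day 1 to 2432 to 3545 at day 5. Of the 3 stem and progenitor miRNAs tested, miR-125b-5p rose by 2.51 and miR-130a did not pass, and miR-196b was detected on no array. miR-10a, at -0.44, did not pass (adjusted p = 0.014, limma), but was called lower under 3 of 4 other scalings. The summed signal of that list was 2399 to 4519 at day 1 and 9238 to 10594 at day 5. Within it the mean of miR-125b-5p went from 1703 to 8427 and that of miR-10a from 1690 to 858. The leukocyte miRNAs miR-223, miR-142-3p, and miR-142-5p, which hematopoietic cells express, were detected on all 12 arrays. Their summed signal was 101360 to 121056 at day 1 and 77799 to 95580 at day 5. In it miR-223, with a mean of 83953 at day 1 and 58864 at day 5, was saturated on all arrays of those days. The fall of the sum can therefore not be read as a size. The part of these lineages in the course of the miR-181 members was not tested.

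Of 13 other miRNAs with known roles in hematopoietic differentiation that were on the array, 4 rose and 4 fell from day 1 to day 5 and 5 did not pass, beside the 31.7% and 29.0% of all miRNAs. Among those that did not pass, miR-21 was saturated on every array of every day, so its change cannot be read. Those that rose were miR-24 by 1.27, miR-146a, a brake on NF-κB signaling, by 1.16, miR-34a, which p53 induces, by 1.00, and miR-221 by 0.41 on the log2 scale. Those that fell were miR-155, the miR-17-92 cluster members miR-17 by 0.61 and miR-20a by 0.67, and miR-223, saturated on all arrays of both days and given without a fold. The median of the list was 0.10, beside 0.11 for all miRNAs. Under the 4 other scalings miR-24, miR-146a, and miR-34a passed in all 4, miR-17 in 3, miR-221 and miR-223 in 2, and miR-155 and miR-20a in 1, and under 2 of these scalings 5 of the 13 passed. Over all miRNAs, 106 were called higher and 97 lower at day 5, and 72 and 113 under that 75th percentile scaling.

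**Figure D4:**
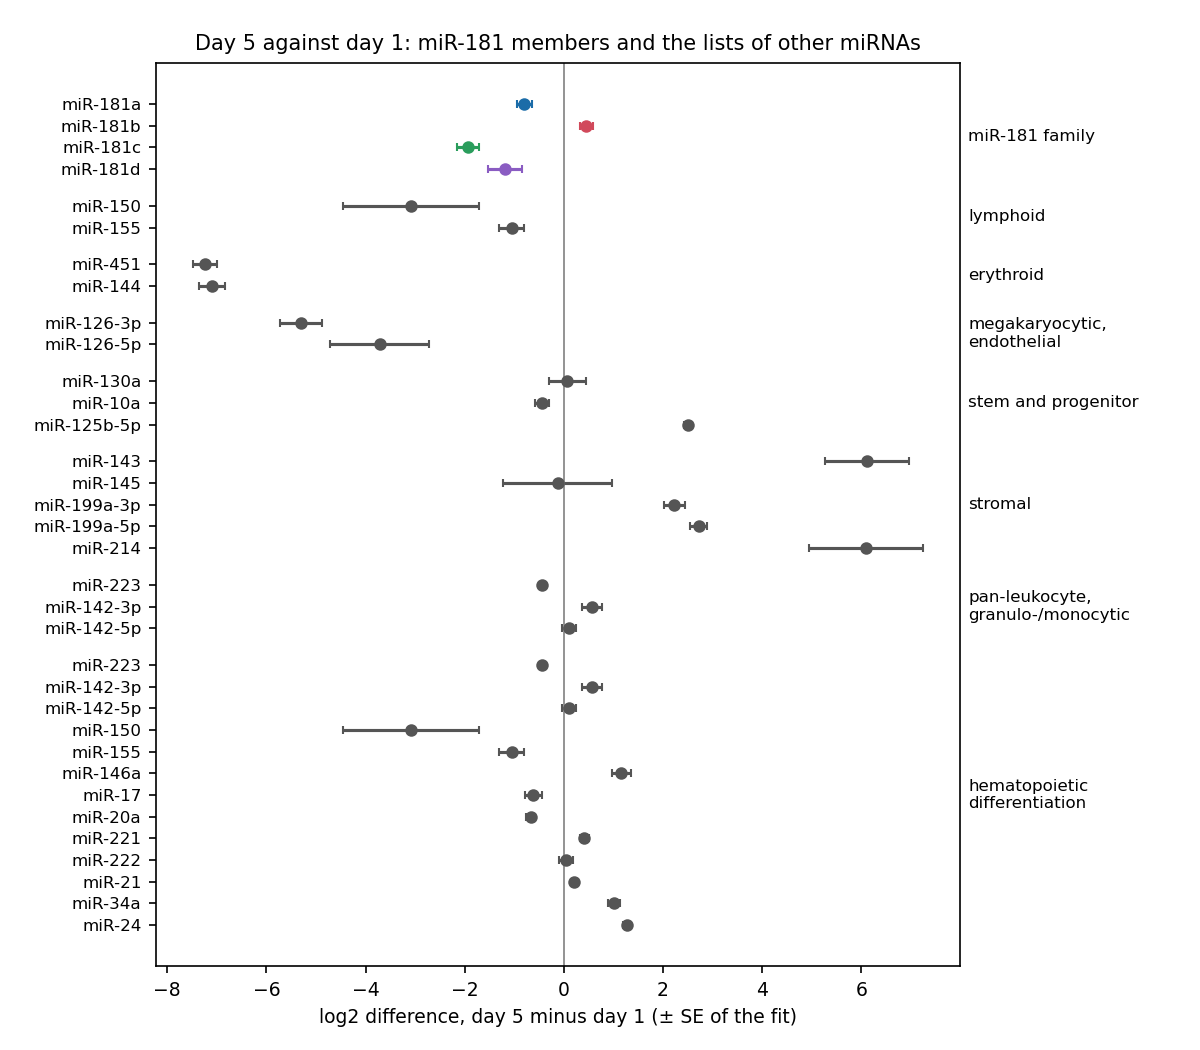
Log2 difference between days 5 and 1 (x axis, points with ± SE of the fit, 4 arrays per day) for the 4 members, in color, and for the miRNAs of the lineage and hematopoietic lists, in gray, by list. miR-181b, at 0.45, is the only member to the right of 0. The plotted points span from the erythroid miRNAs, near -7, to the stromal miRNAs miR-143 and miR-214, near 6, and the members lie within. miR-143 and miR-214 were each detected on at most 1 array before day 5. The points of miR-144, miR-126-5p, miR-143, and miR-214 depend on values at the floor, so their distances from 0 are not measured sizes.

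**Figure D5:**
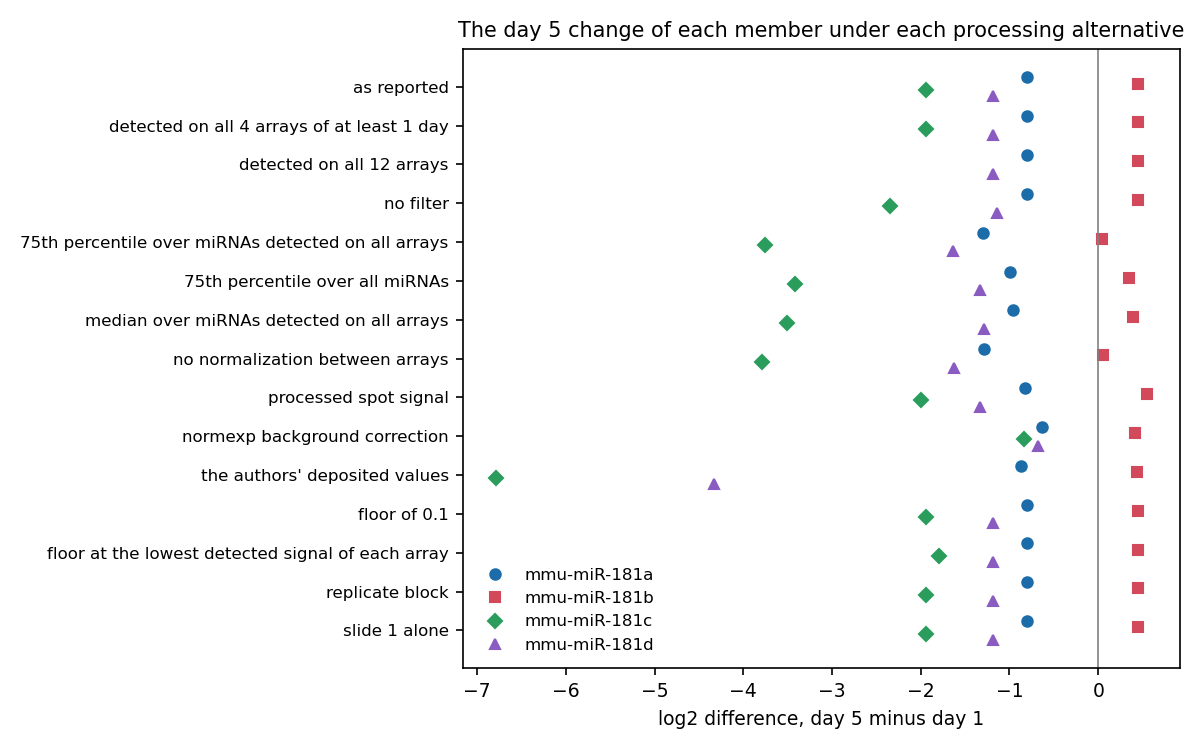
Log2 difference between days 5 and 1 (x axis) for each member, by color and symbol, under each way of processing the signals (rows, with the reported one at the top). miR-181a, miR-181c, and miR-181d are below 0 in each row that holds them, miR-181b lies between 0.04 and 0.55, and miR-181c moves most, from -6.79 in the deposited values to -0.84 after normexp background correction. The deposited log2 values of miR-181c at day 5 were 0.10, 1.41, and 0.10, with none for replicate 4, so -6.79 is not a measured size.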

How the data were processed

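RNA from 12 cultures, 4 at each of days 1, 3, and 5, was read on 12 single-color Agilent arrays. The authors deposited the output of Feature Extraction 9.5.3.1, whose intensity values are linear, background subtracted, and not normalized between arrays. Of these, the total signal of each miRNA was the main measure. The authors also deposited a table of quantile-normalized log2 values, empty where a miRNA was not detected, which served as an alternative. A column of probe names and locations served for matching.

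The 334 miRNAs that any array detected were kept, and their total signals underwent quantile normalization (limma 3.58.1, R 4.3.3). Values under 1 (372, or 9.28%) were set to 1 before taking log2. Day means were fitted with lmFit and eBayes, with Benjamini-Hochberg adjustment over 334 miRNAs and a threshold of 0.01. The fit was tested on simulated data. The listed miRNAs miR-144*, miR-486, miR-424, and miR-106a are not analysed here. The members and lists were chosen with earlier results of these data known. The lists were lymphoid, erythroid, megakaryocytic and endothelial, stem and progenitor, stromal, leukocyte, and hematopoietic differentiation miRNAs. Named were the members, their opposite arms, the listed miRNAs, and the 3 miRNAs most like each member detected on all 12 arrays. Alternatives changed the filter, scaling, background correction, floor, and test, added a replicate block, or left out each array. The number of arrays limits precision. Python 3.11.15 was used for tables and figures.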

Additional observations from a re-analysis of the deposited data

Results flagged for a closer look

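Values were looked at again where 1 array of 4 lay far from the other 3 on the same day by Dixon's criterion, which sets the gap to the nearest array against the whole range. Among 96 sets of 4 arrays this held for 18, where chance gives about 1 in 20, and quantile normalization, which gives several arrays the same value, makes such gaps easier to reach. Among the cluster partners, miR-181a minus miR-181b was -0.57 on the array of day 5 replicate 2, against -0.85 to -0.82 on the others. miR-181c minus miR-181d was -1.66 on that of day 3 replicate 4, against -0.85 to -0.70, on a day when miR-181c was not detected.

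At day 5, replicate 4 stood apart for miR-155 (6.05, not detected), miR-10a (10.15), and miR-20a (12.70), replicate 1 for miR-125b-5p (12.65), and replicate 2 for miR-221 (14.45), all log2 normalized signals. At day 3, replicate 4 stood apart for miR-10a (9.83), miR-125b-5p (12.36), and miR-142-5p (11.38), and replicate 1 for miR-223 (15.90), miR-17 (9.36), and miR-24 (15.62). On the same day replicate 2 stood apart for miR-20a (13.49), and replicate 3 for miR-155 (5.84, not detected) and miR-21 (16.30, saturated). At day 1, replicate 4 stood apart for miR-126-3p (9.18) and miR-222 (12.77). None of the 4 members was among these by itself.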

How the results depend on the processing

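The change of miR-181a minus miR-181b kept its direction under all 14 alternatives to day 5 and all 13 to day 3, at -1.38 with the processed spot signal and -1.05 with normexp to day 5, and -1.50 with normexp to day 3. Leaving out each array gave -1.32 to -1.20 to day 5 and -1.80 to -1.68 to day 3. The change of miR-181c minus miR-181d to day 5 was -2.11 and -2.09 under 75th percentile scaling (by miRNAs that every array detected, or by all). It was -2.22 under median scaling and -2.16 without normalization. The deposited values gave -2.46, from unlike sets of arrays for the 2 partners. Leaving out each array gave -1.01 to -0.25 to day 5 and -0.97 to -0.59 to day 3. The 1 array of day 5 with a miR-181c signal below background was set to the floor of 1 by scalings without ranks. It therefore weighs more there.

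Without normalization miR-181b reversed its difference at day 3 to -0.28 and between days 3 and 5 to 0.33. Scalings moved the median of all miRNAs from day 1 to day 5 from 0.11 to between -0.51 and -0.16.

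With the filter of detection on all 12 arrays, 111 miRNAs passed the F test and 109 differed between days 5 and 1, against 210 and 203 of 334, because fewer miRNAs were tested. Of the miRNAs in the lineage lists 4 differed between those days, rises and falls together, against 11. Tested without that filter were 2 lymphoid, 2 erythroid, 2 megakaryocytic and endothelial, 3 stem and progenitor, 5 stromal, and 3 leukocyte miRNAs. Of the lineage miRNAs 7 passed with detection on all 4 arrays of a day and 7 in the deposited values. Of the hematopoietic list 5 passed under 75th percentile scaling by all miRNAs and 5 under median scaling, against 8. Leaving out each array gave 195 to 214, 185 to 201, 9 to 12, and 7 to 9.

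Deviations of same-numbered arrays had an r from -0.44 to 0.70, which does not settle whether the replicate numbers pair the samples. A replicate block took the SE of the day 5 difference from 0.15 to 0.11 for miR-181a and from 0.13 to 0.08 for miR-181b. That SE went from 0.34 to 0.22 for miR-181d and from 0.22 to 0.24 for miR-181c. With the replicate block 206 miRNAs passed the F test and 200 differed between days 5 and 1, and miR-181a-1* had an adjusted p of 0.013.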
